A study of Homo sapiens with 2 samples.

Results

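Ribosomal proteins build the small and the large subunit of the ribosome, and a few of them have a paralog, a second gene for a closely related protein. Here 5 such genes were described by the RNA immunoprecipitation peaks named for them, the paralogs RPL22L1 and RPL26L1, the large subunit genes RPL37A and RPL6, and the small subunit gene RPS26. They were chosen by the measured values of their peaks. RPL22L1, RPL37A, RPS26 and RPL6 held the 4 highest folds among 87 ribosomal protein genes and paralogs, and RPL26L1 held the most tags, so the height of these values is a description and no finding. The 5 genes are those of 6584 gene symbols in the 2 full peak tables, and their 5 peaks are among 10254 distinct peaks.

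RNA immunoprecipitation followed by sequencing was performed in MKN-28 cells, an established human gastric cancer line, with no treatment. There was 1 library made with an antibody against PTBP1 and 1 made with normal rabbit IgG, the negative control. The tables list peaks of PTBP1 over IgG on the hg19 build, so a fold compares 1 library with 1 library, has no replicate check and carries no p-value across genes. Markers of the labelled tissue could be checked only as peak names, which do not measure expression. Peaks were named for MUC1 and CLDN18 of 10 epithelial and gastric markers, and for COL1A1 alone of 7 blood and stromal markers. Of all protein-coding genes 25.9% had a peak, so these few names do not bear on the cell type.

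PTBP1, the polypyrimidine tract binding protein, attaches to stretches of C and U in RNA and is best known as a splicing repressor, with further roles in the cytoplasm. Messenger RNAs of ribosomal proteins typically begin with a short run of pyrimidines, the terminal oligopyrimidine tract, through which their translation responds to growth signals. The genes are short and highly transcribed, and many have processed pseudogenes, so reads of such a gene can be hard to place.

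The start-site sequences of the genes are shown because this pyrimidine tract is their best known regulatory sequence. Each window spans 10 bases before and 20 bases from the annotated start, read 5′ to 3′ on the gene's strand, from RefSeq on GRCh38.p14, with the longest run of C and T in capitals.
RPL22L1, chr3:170870176-170870205: ccgtagCTTCCTCTCTgctctcgcggccga
RPL37A, chr2:216498834-216498863: gcgTCTCTTCCTTTCTgggctcggacctag
RPS26, chr12:56041908-56041937: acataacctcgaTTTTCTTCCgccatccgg
RPL22, chr1:6199576-6199605: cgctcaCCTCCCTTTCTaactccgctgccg
RPL26, chr17:8383174-8383203: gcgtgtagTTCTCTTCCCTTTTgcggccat
RPL26L1, chr5:172958870-172958899: ggcggcggccacaaaCCCgcaggcacgccg
RPL6, chr12:112409266-112409295: gacggcgcgtgcactgtgTTCCTggtcctg

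The run was 10 bases in RPL22L1, 13 in RPL37A and 9 in RPS26. It was 11 bases in RPL22 and 14 in RPL26, the canonical genes of the paralogs. Counted from the annotated start, the run began at −4 in RPL22L1, −7 in RPL37A, −4 in RPL22, −2 in RPL26 and 3 in RPS26. All of these runs but that of RPS26 thus include bases before the annotated start. The lengths are those of runs in the window and not of tracts in the RNA. RPL26L1 differed from RPL26, with a longest run of 3 bases in each of its 2 annotated windows, and RPL6 had 5 in each of its own. A run of at least 6 bases was present in 35.1% of the windows of 27305 genes. The motif TCTT, a form of the pyrimidine motif bound by PTBP1, lay on the gene's strand in the windows shown for RPL37A, RPS26 and RPL26. It did so in 13.5% of the windows of all genes (24% on either strand). Among the ribosomal genes with a window, both the run and the motif were more frequent than among all genes. They thus do not set the genes shown apart from their family. In RPL37A the motif lay wholly before the annotated start, and so outside the annotated RNA. In RPS26 and RPL26 it lay after the start. These starts are on another build than the peaks, and RPL6 and RPL26L1 have several starts, so no peak was placed on these windows.

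The first question was where the peaks of the 5 genes lie. Only the RPL6 peak lay on the transcript it was named for, and this rests on 1 listed transcript of 13664 bases. The other 4 peaks (80%) lay outside, 2 upstream of the start and 2 beyond the end, at 6010 to 42561 bases from the transcript. Among all 10957 pairs of a gene and a peak, 43.5% lay outside the transcript, and 5 genes are too few to be set against that share. In each of the 5 cases the named gene had the nearest transcript start among the genes of the tables. If peaks were named by nearness to a start, this was fixed in advance, so it is a description and no finding. The tables list transcripts only of genes for which a peak was named, so a gene without one could lie under a peak unseen.

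RPL22L1 encodes a paralog of RPL22, the large subunit protein eL22. It was named for a single position on chromosome 3 (170539759 to 170540102), listed in both tables with 18 tags and a fold of 33.13. A count of 18 has an exact 95% Poisson interval of 10.67 to 28.45, which like all such intervals here covers counting error only. The p score, which is −10 times the log10 of p, was 194, and the deposited false discovery rate was 100%. Over all peaks of the tables this rate ran from 43.06 to 100%, so no peak counted here had a low one. The peak lay 48115 bases downstream of the RPL22L1 start and 42561 bases beyond the transcript end, in the intergenic class. It overlapped no transcript of the tables. In RefSeq order the protein-coding neighbours of RPL22L1 are SLC7A14 and EIF5A2, and the peak lay on the side of SLC7A14.

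The fold of this peak ranked 4 of 10254, a rank shared with peaks of the same fold, while 38.9% of all peaks held at least as many tags. Fold divided by tags was 1.84 for the RPL22L1 peak, and 846 of the 10254 peaks (8.25%) had this same ratio to 2 decimals. Within those peaks the fold follows the tag count alone. DEFB127, a defensin gene, and ST8SIA4, a sialyltransferase gene, had intergenic peaks with the identical 33.13-fold and 18 tags, and they were the closest to RPL22L1 among 1395 genes whose best peak was intergenic. Closeness was the distance in log2 fold and log2 tags, with 0.000 for both.

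**Figure D1:**
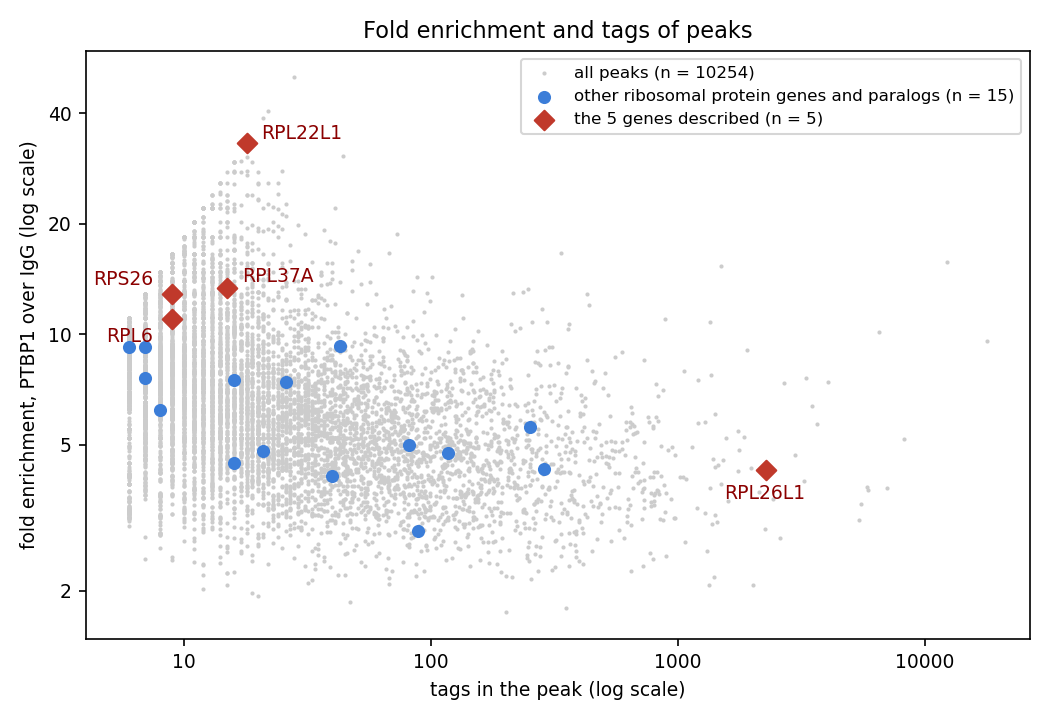
Tags in each peak (horizontal, log scale) against its fold enrichment of PTBP1 over IgG (vertical, log scale), with all 10254 peaks in grey, the 15 peaks of other ribosomal protein genes and paralogs as blue circles and the 5 peaks described as red diamonds. RPL22L1 lies on the upper left edge with 18 tags and 33.13-fold, and RPL26L1 lies far to the right with 2282 tags and 4.26-fold.

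RPL22, the canonical gene, was named for its own peak on chromosome 1 (6258664 to 6259138) with 6 tags and 9.2-fold. This peak lay inside the transcript, 541 to 1015 bases after the start, and so in the promoter class, whose peaks had their middle at most 1999 bases from a start. The RPL22 count of 6 has a Poisson interval of 2.202 to 13.06 and is the fewest tags any peak held. Its interval overlaps that of the 18 tags of RPL22L1, which does not show that the counts are alike, and their difference was not tested. The difference in fold follows from the choice of RPL22L1. By position, the RPL22 peak lay on its gene and the RPL22L1 peak did not.

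RPL26L1 encodes a paralog of RPL26, a large subunit protein at the nascent chain exit. It was named for 1 peak on chromosome 5 (172377567 to 172379720) with 2282 tags (Poisson interval 2189 to 2378) and 4.26-fold. The p score was 259.72 and the false discovery rate 100%. By tags it ranked 19 of 10254, whereas 85.5% had at least this fold. The peak spanned 2154 bases at 1059 tags per kb, against a median of 26.41 tags per kb over all peaks. No peak was named for RPL26 itself.

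The RPL26L1 peak lay 6010 bases before the RPL26L1 transcript. It shared 2122 of its 2154 bases with ERGIC1, a gene of a membrane protein that cycles between the endoplasmic reticulum and the Golgi, and ran 32 bases past the listed end of ERGIC1. Both genes are on the plus strand. The middle of the peak lay 99.1% along ERGIC1 (172261222 to 172379688) and 117421 bases after its start, but 7088 bases before the start of RPL26L1. The summit lay 1418 bases before the end of ERGIC1. By position, this peak is on the last part of ERGIC1 and not on RPL26L1.

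ERGIC1 was named for 6 other peaks, all within its transcript. They held 6 to 40 tags each and 108 in all, with folds from 6.68 to 12.88. The peak at the end of ERGIC1 thus held more tags than all 6 together and had a lower fold than any of them. Among 1173 genes whose best peak was in the upstream class, DAGLB (1290 tags, 5.77-fold) and GUSBP10 (2023 tags, 2.07-fold) were closest to RPL26L1, at distances of 0.932 and 1.056, so none of these best peaks had nearly the same values.

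**Figure D2:**
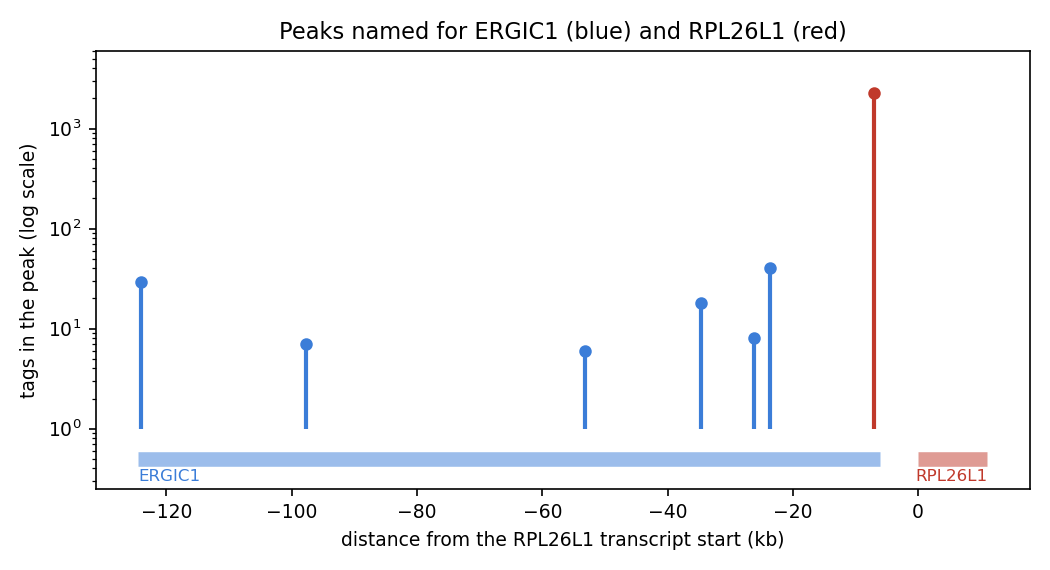
Tags in each peak (vertical, log scale) against distance from the RPL26L1 transcript start in kb (horizontal), with the 6 peaks named for ERGIC1 in blue, the peak named for RPL26L1 in red and both transcripts as bars. The peak of 2282 tags stands at the end of the ERGIC1 bar, outside the RPL26L1 bar, and the blue peaks hold 6 to 40 tags.

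RPL37A encodes a small zinc-binding protein of the large subunit. Its peak on chromosome 2 (217382868 to 217383720) held 15 tags (Poisson interval 8.395 to 24.74) at 13.36-fold, with a p score of 71.54 and a false discovery rate of 46.12%. It lay 19775 bases after the start of a transcript of 2670 bases, and thus 16679 bases beyond its end, in the intergenic class. It overlapped no transcript of the tables. The nearest in values among 1395 genes with an intergenic best peak were ZBTB11-AS1 (13.66-fold, 15 tags) and KCNMB4 (13.55-fold, 14 tags), at distances of 0.032 and 0.102.

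RPS26 encodes a small subunit protein near the mRNA exit channel, and mutations of the gene cause Diamond-Blackfan anaemia. Its peak on chromosome 12 (56429109 to 56429662) held 9 tags (Poisson interval 4.115 to 17.08) at 12.88-fold, with a p score of 53.75 and a false discovery rate of 44.02%. The peak ended 6022 bases before the RPS26 start, in the upstream class, and overlapped no transcript of the tables. In RefSeq order the protein-coding neighbour on that side is IKZF4, which has no transcript in the tables, so its overlap with the peak could not be read. The RPS26 fold is 7 times 1.84, a whole multiple within 0.02, as were the folds of 20.5% of all peaks. GNE and LOC101927100 were 2 of 3 genes with upstream peaks of exactly 12.88-fold and 9 tags.

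RPL6 encodes a large subunit protein. Its peak on chromosome 12 (112855881 to 112856406) held 9 tags, as did that of RPS26, at 10.98-fold, with a p score of 44.86 and a false discovery rate of 43.72%. All 526 bases lay inside the listed RPL6 transcript, 241 to 766 bases after its start. That start (112856647) belongs to the only RPL6 accession listed with the peak, and the transcript spans 13664 bases. The several RPL6 starts on GRCh38.p14 were not placed against this peak. Whether the peak lies within RPL6 transcripts from those starts is thus not known. The same peak was named for PTPN11, the gene of the phosphatase SHP2, which runs in the other direction and starts 558 bases from the middle of the peak, so the peak lay just before PTPN11. The tables give no strand for a peak, so tags of RPL6 and tags of upstream PTPN11 RNA cannot be told apart. ABCA5 and CASP4, with 11.04-fold and 9 tags each, were nearest among 1758 genes whose best peak was in the promoter class.

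Within the 5 genes, fold and tags were ordered differently. The order by fold was RPL22L1 (33.13), RPL37A (13.36), RPS26 (12.88), RPL6 (10.98) and RPL26L1 (4.26), while by tags RPL26L1 came first with 2282 and RPS26 and RPL6 came last with 9. The Poisson intervals of the tags of RPL22L1, RPL37A, RPS26 and RPL6 overlapped one another, so their order is not resolved at this depth. The median fold was 12.88 for the 5 peaks and 7.14 over all 10254 peaks, a difference that the choice of the genes fixes. Among the values just below the 5 were the 9.2-fold peaks of RPL13 and RPL22 and, by tags, the 288 tags of RPS24.

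The second question was how many other ribosomal protein genes had peaks. Of the 87 genes, 16 (18.4%, 95% Wilson interval 11.6 to 27.8%) had a peak, beside 25.9% of 20056 protein-coding genes. An overlapping peak was present at 6 (6.9%, 3.2 to 14.2%), beside 18.1%, and a peak of at least 10-fold at 4 (4.6%, 1.8 to 11.2%), beside 8.52%. The 4 genes past 10-fold are RPL22L1, RPL37A, RPS26 and RPL6, which were chosen for it. Without the 5 genes and the other paralogs, 9 of 76 (11.8%, 6.36 to 21%) had a peak. These shares were not matched on gene length or expression. The listed transcripts of the 16 genes had a median genomic length of 5269.5 bases, against 30033 for the 5186 symbols of the mRNA table.

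The large subunit list had peaks at 8 of 47 genes (17%), namely RPL6, RPL13, RPL22, RPL31, RPL37A, RPL39, RPLP0 and RPLP1. The small subunit list had them at 4 of 32 (12.5%), among them RPS15, RPS24 and RPS26. Of the 8 paralogs, 4 had one (50%, 21.5 to 78.5%, which includes the 25.9%), RPL7L1, RPL10L, RPL22L1 and RPL26L1. Only RPL10L among these paralogs had an overlapping peak.

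**Figure D3:**
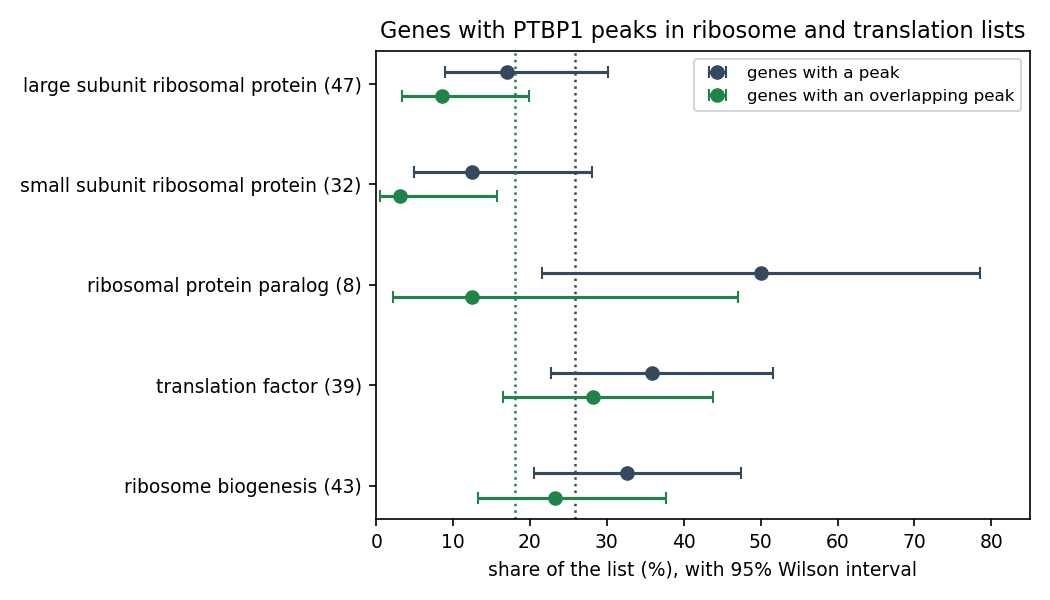
Share of each list with a peak (dark) and with a peak that overlaps the transcript (green) in percent, with 95% Wilson intervals and the number of genes in brackets, and dotted lines at the shares of all protein-coding genes (25.9% and 18.1%). Of the small subunit genes 12.5% had a peak and 3.12% an overlapping one, and the paralogs, with 8 genes, have the widest intervals.

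Of the 20 peaks named for ribosomal genes, 5 (25%) were in the promoter class, near the 19.8% of all peaks. RPL39, a very small large subunit protein, had a peak of 82 tags at 5-fold on chromosome X (118923750 to 118924468), 1154 to 1872 bases into the transcript. RPLP0, the stalk scaffold and a common reference gene, had one of 89 tags at 2.91-fold on chromosome 12 (120638443 to 120638861), shared in name with PXN-AS1. RPL10L, a retrogene expressed chiefly in testis, had one of 26 tags at 7.42-fold on chromosome 14 (47120458 to 47121049) that covered its start. These 3, RPL6 and RPL22 were the genes with promoter-class peaks. RPS24 had an intron peak of 288 tags at 4.28-fold (chromosome 10, 79796794 to 79797514) shared by 6 listed transcripts.

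RPLP0 was also covered by a peak that was not named for it. That peak (120635043 to 120637688) held 548 tags at 4.61-fold and lay wholly within the RPLP0 transcript (120634502 to 120639014), but it was listed in the upstream class of GCN1 and PXN-AS1. Counted by position, RPLP0 thus held 2 peaks, of 89 and 548 tags, both with folds below the median of 7.14. No other listed transcript of these genes carried a peak named only for another gene.

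The 11 upstream and 3 intergenic peaks of the 16 genes all lay outside the gene. Outside peaks were thus 70% of the 20, against 43.5% of all pairs of a gene and a peak. Upstream peaks were 11 of 20 (55%), against 17.9% of all 10254 peaks, where a peak named for several genes was counted under 1 class. Some genes held more than 1 of the 11. Of the 14 outside peaks, 6 (42.9%, 21.4 to 67.4%) overlapped another gene of the tables, as did 1062 of all 4764 such pairs (22.3%). Besides the RPL26L1 peak on ERGIC1, these included the 118-tag peak of RPL7L1, 96% along GLTSCR1L, the 16-tag peak of RPLP1, 89.7% along KIF23, and the 253-tag peak of RPLP0, 88.3% along PXN-AS1. In 5 of these 6 cases the other gene is on the same strand as the ribosomal gene, and PXN-AS1 is the exception. The 253-tag peak of RPLP0 was also named for GCN1. Genes for which no peak was named could not be counted here.

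**Figure D4:**
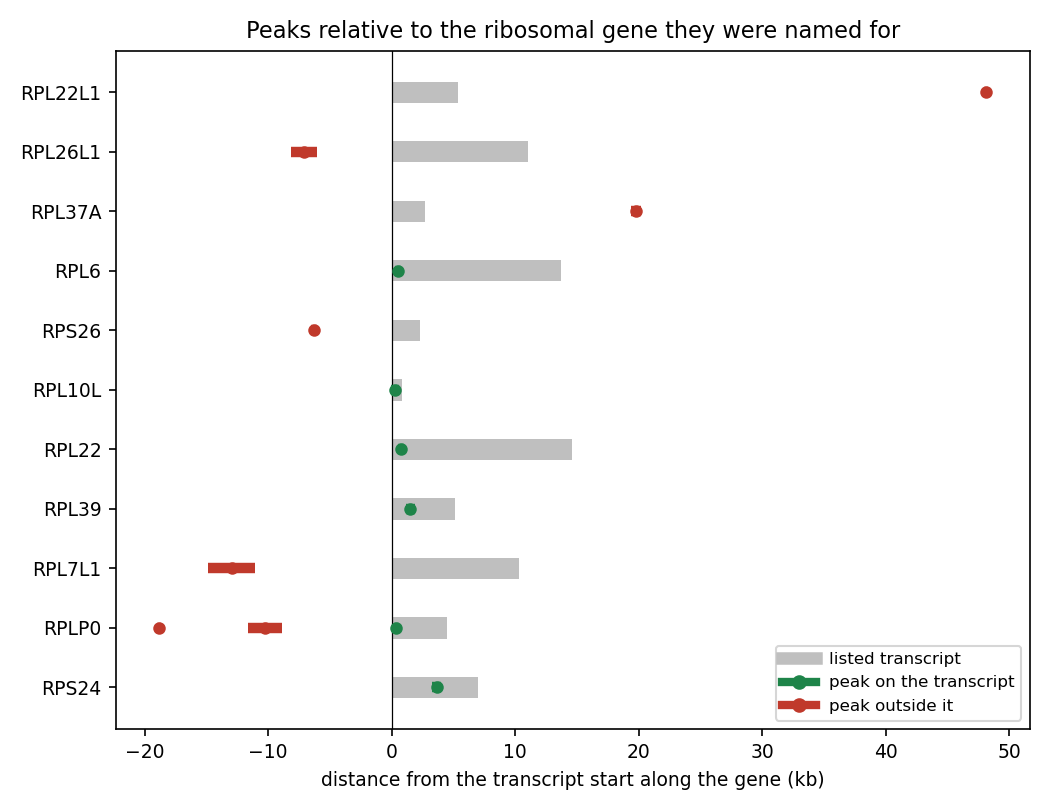
Distance in kb from the transcript start along the gene for each peak of 11 ribosomal genes (the 5 described, the paralogs and the genes with an overlapping peak), with the listed transcript as a grey bar and peaks on it in green or outside it in red. The green peaks belong to RPL6, RPL10L, RPL22, RPL39, RPLP0 and RPS24, and the farthest red peak is that of RPL22L1 at 48115 bases.

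Other outside peaks had few tags. RPL13 had a peak of 7 tags at 9.2-fold, 11248 bases upstream. RPL31 had one of 7 tags at 7.59-fold, 12957 bases beyond its end. RPS15 had 2, of 16 tags at 7.52-fold and 21 tags at 4.82-fold, at 18451 and 5772 bases upstream, and the first was also named for GAMT. RPLP0 had a further one of 8 tags at 6.22-fold. Over the 20 peaks the median was 19.5 tags and 6.82-fold, against 13 tags and 7.14-fold over all peaks. Fewer than 20 tags were held by 10 of the 20 (50%, 29.9 to 70.1%), beside 64.2% of all peaks.

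Ribosomal protein pseudogenes made up a further 6 names in the lncRNA table, with 7 peaks. RPL13AP6, which overlaps SHOC2 in position, had 125 tags at 2.71-fold across its whole length. RPS2P32 had 43 tags at 4.84-fold on the transcript and 40 tags at 3.22-fold after it. RPS7P5 had an exon peak of 27 tags at 3.74-fold, and RPL23AP7 had a promoter-class peak of 10 tags at 7.91-fold that was also named for RABL2A. RPS10P7 (18 tags, 8.2-fold) and RPL13AP3 (7 tags, 9.13-fold) had intergenic peaks. No peak was named for RPL13A, RPL23A, RPS10, RPS2 or RPS7, the genes after which these pseudogenes are named. The sources used here do not state how reads that match both a gene and its pseudogenes were placed. The values of the pseudogenes and the absence of peaks at those genes are therefore uncertain.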

How the data were processed

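MKN-28 RNA from 1 PTBP1 and 1 IgG immunoprecipitation, depleted of ribosomal RNA, was sequenced by the authors. The submitters' processing notes name cutadapt (1.9.3), Bowtie2 (2.2.4) and hg19. The peak caller, the strand of the libraries and the total depth are not given in the sources used here. In the deposited tables, tags within a peak are whole counts, of a library the header does not name. The authors gave enrichment over IgG as a ratio, the p-value as a score (−10 log10 p) and the false discovery rate as a percent. The results of 1 gene are not reported here. The promoter tables repeat rows of the full tables and were not used.

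Each peak was counted once per gene and position. A peak overlapped a transcript where at least 1 base was shared between the listed start and end. Of 12699 accessions, 12532 matched RefSeq (GRCh38.p14), used for names, neighbours and start windows only. Start windows were found for 69 of the 87 ribosomal genes, under 80%, so no share over the list is given. The named genes were the 5 genes, the list genes and pseudogenes with a peak, RPL22, RPL26, genes sharing a peak with them and the 2 nearest in values. The genes and lists were chosen with earlier results of these data known. No test was possible with 1 library per group. Tables were read with pandas (2.3.3) in Python (3.11.15), intervals came from scipy (1.17.1), and plots from matplotlib (3.10.9). The overlap code was tested on simulated data. Alternatives were limits on tags, p score and fold, no promoter peaks, other overlap rules, merged peaks, the mRNA table alone and a reduced gene list.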

Additional observations from a re-analysis of the deposited data

How the results depend on the processing

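With at least 20 tags, peaks remained at 8 ribosomal genes in place of 16, and of the 5 genes described only RPL26L1 had 1, at 4.26-fold. With a p score of at least 50, 9 genes had a peak and 1 an overlapping one in place of 6. With a fold of at least 10, 4 had a peak and 1 an overlapping one. Without promoter-class peaks 1 had an overlapping peak. Leaving out the 5 genes and the paralogs, 9 had a peak. Each of these keeps fewer peaks or genes. In the other 17 recomputations, the alternatives changed no count or median by more than 1.5 times. No paired analysis was possible because there is 1 library per group and no test.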

Other observations

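Other genes of the translation machinery were counted in the same way, as values only. Among 39 translation factors, 14 (35.9%, 95% Wilson interval 22.7 to 51.6%) had a peak, which overlapped the transcript in 11 (28.2%, 16.5 to 43.8%). ETF1, the release factor, had the highest fold of that list, 13.92 at an intron peak of 12 tags, and EIF5B and EIF1 followed with intergenic peaks of 11.04-fold with 6 and 7 tags. Of 43 ribosome biogenesis genes, 14 (32.6%, 20.5 to 47.5%) had a peak, and on 10 (23.3%, 13.2 to 37.7%) it overlapped the transcript. NVL, NOP2 and RIOK2 led that list with 11.04-fold, 9.03-fold and 8.29-fold, each on its own transcript, with 6, 11 and 9 tags. All 4 intervals include the shares of protein-coding genes given above, and the differences from the ribosomal protein genes were not tested.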
